A study of Mus musculus with 6 samples.

Results

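The subject here is a set of 10 heat shock chaperone genes in mouse fetal blood progenitors that carry or lack Satb1, a chromatin organiser. The genes were Hspa1a, Hspa1b, Hsph1, Dnajb1, Hspb1, Hsp90aa1, Hspa8, Hspa5, Hspd1 and Hsf1. The set was chosen by the measured level of Hspa1a, which had been seen to be higher on all Satb1-null arrays of these same data, and the question was whether the other inducible and constitutive chaperones followed it. The difference between genotypes is therefore given as a description, with no test, for every member. Of the 10 genes, 9 were matched to a probe through the RefSeq accession in the scanner files, out of 20653 named genes with a value on all arrays. These 9 genes had 12 probes, with 3 for Hspa8, 2 for Hsph1 and 1 for each of the others. Hspa1b had no matched probe, so no value is given for it.

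Embryos were taken at E18.5 (days of embryonic development) on a C57BL6/J background and were labelled wild type or Satb1-null. The labels give neither the null allele nor the number of embryos pooled per array. Cells were sorted fresh from fetal liver into 3 populations per genotype. The HSC-enriched sort (haematopoietic stem cells) was lineage negative, c-kitHi, Sca-1+ and Flt3-. The LMPP-enriched sort (lymphoid-primed multipotent progenitors) differed from it in being Flt3+, and the CLP-enriched sort (common lymphoid progenitors) was lineage negative, c-kitLo, Sca-1Lo and IL7Rα+. Each of the 6 groups had 1 single-colour Agilent array, made from 6.1 ng of amplified RNA.

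Heat shock proteins are chaperones that bind unfolded proteins and help them to fold. In resting cells the transcription factor HSF1 is held inactive by chaperones, and when unfolded proteins draw these away it binds heat shock elements, inverted repeats of the letters GAA, and switches on the inducible genes. The constitutive members work in unstressed cells in the cytosol (Hspa8), the endoplasmic reticulum or ER (Hspa5) and the mitochondria (Hspd1), and the ER has a stress response of its own.

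The promoters show which members carry the letters of a heat shock element close to their start. They are printed for Hspa1a and Hspb1, the 2 members past a 2-fold difference between genotypes, for Hsph1, an inducible member below it, and for Hspa5, which is known for its ER stress element. Each line holds the 150 bases before the transcription start, read 5′ to 3′ on the gene's strand from RefSeq on build GRCm38.p6. Capitals mark a match to GAANNTTC or TTCNNGAA, or in Hspa5 to the ER stress element, a CCAAT box followed at a fixed distance by CCACG.
Hspa1a, chr17:34972157-34972306, minus strand: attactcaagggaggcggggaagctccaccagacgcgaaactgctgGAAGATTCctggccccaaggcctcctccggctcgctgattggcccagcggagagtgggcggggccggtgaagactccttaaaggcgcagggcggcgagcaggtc
Hspb1, chr5:135887769-135887918, plus strand: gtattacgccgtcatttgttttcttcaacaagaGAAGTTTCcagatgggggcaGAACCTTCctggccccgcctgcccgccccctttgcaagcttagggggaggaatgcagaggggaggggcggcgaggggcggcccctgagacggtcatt
Hsph1, chr5:149636337-149636486, minus strand: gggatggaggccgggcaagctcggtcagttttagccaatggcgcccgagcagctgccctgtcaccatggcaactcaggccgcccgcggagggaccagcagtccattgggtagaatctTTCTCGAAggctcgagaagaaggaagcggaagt
Hspa5, chr2:34771940-34772089, plus strand: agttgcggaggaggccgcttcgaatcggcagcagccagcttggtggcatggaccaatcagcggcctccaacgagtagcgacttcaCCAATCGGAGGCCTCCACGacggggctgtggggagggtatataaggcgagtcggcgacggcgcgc

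Motifs were searched on both strands in windows of 300 bases, from 250 before to 50 after each start, and positions are counted from the start, negative before it. Entries were found for 7 of the 10 genes, among them Hspa1b. Hspa1a held 1 match to GAANNTTC, at -104 to -97, and Hspb1 held 2, at -117 to -110 and -97 to -90. This motif was present in 7.86% of all 32851 windows, and the other orientation, TTCNNGAA, in 8.52%. The triplet, in which both pairs overlap by a shared TTC or GAA, was present in 0.603% of windows. It was found in Hsph1, after both listed starts, and in Hspd1, at -144 to -127 from its second listed start as a pair of overlapping triplets. Hsph1 also held a match to TTCNNGAA before the start, at -33 to -26 from its first listed start. Dnajb1 and Hspa5 held neither pair. The ER stress element was found in Hspa5, at -65 to -47, and in 0.119% of all windows. Hspa1a and Hspa1b, neighbouring genes on chromosome 17, were identical at 247 of the 250 bases before their starts. Whether the Hspa1a probe also binds RNA of Hspa1b cannot be told, because the files hold no probe sequences. The Hspa1a values are uncertain in that respect.

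**Figure D1:**
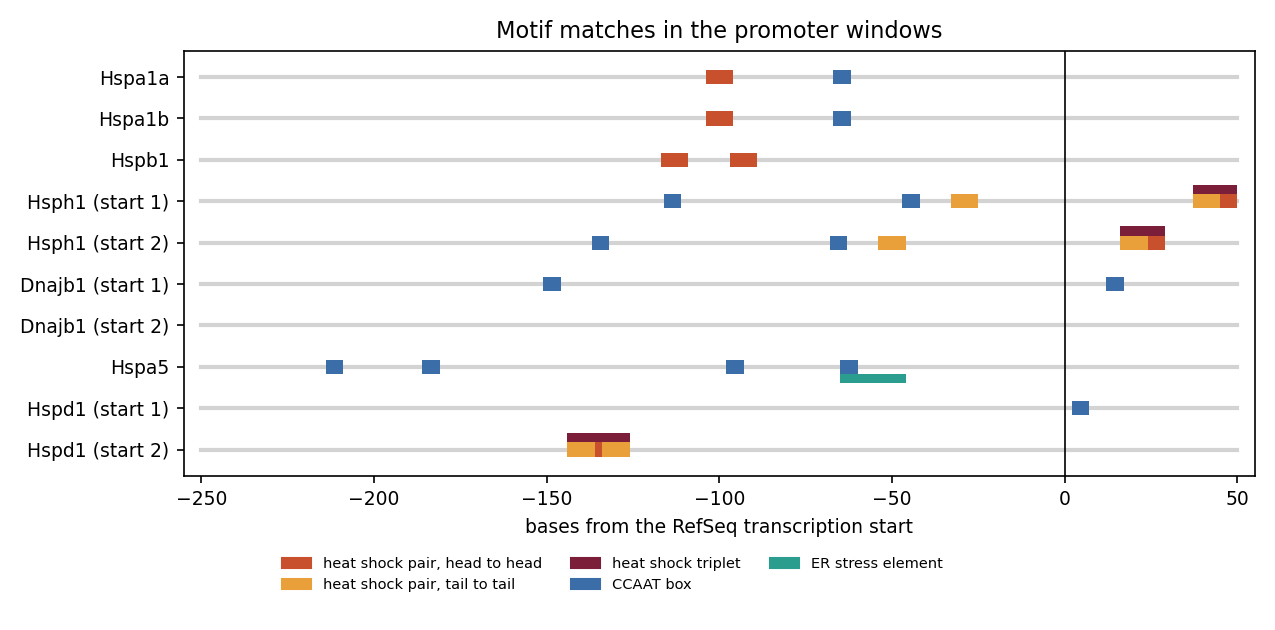
Positions of motif matches in the RefSeq promoter windows, as bases from the transcription start (horizontal) for each gene and listed start (rows). Heat shock pairs lie about 100 bases before the start in Hspa1a, Hspa1b and Hspb1. Hsph1 has a pair before the start, at -33 to -26 from its first listed start, and the triplet after it. Hspd1 has overlapping triplets before its second listed start, and in Hspa5 only CCAAT boxes and the ER stress element were found.

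Hspa1a, the main stress-inducible Hsp70, was the member that differed most consistently between genotypes. Values are given throughout in the order HSC, LMPP, CLP. The processed intensities of its spot were 49.7, 148 and 207 on the wild type arrays and 356, 544 and 797 on the Satb1-null arrays. On the log2 scale relative to the 75th percentile of each array, which is set to 0, the wild type levels were -1.83, -0.33 and 0.18 and the Satb1-null levels 0.75, 1.56 and 1.79. All 3 Satb1-null arrays stood above all 3 wild type arrays, whichever population they came from. The log2 differences, Satb1-null minus wild type, were 2.58, 1.88 and 1.61, or 5.98-fold, 3.69-fold and 3.05-fold. The scanner's own error of these differences was 0.215, 0.206 and 0.205. It covers the reading of the spots and leaves out variation between embryos, sorts and amplifications, for which 1 array per group gives no estimate. Of all genes compared, 0.969% in HSC, 1.88% in LMPP and 5.57% in CLP were at or above Hspa1a. Of 12335 genes compared in all 3 populations, 27 (0.219%) were at least 2-fold higher in each, Hspa1a among them, and no other member was.

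**Figure D2:**
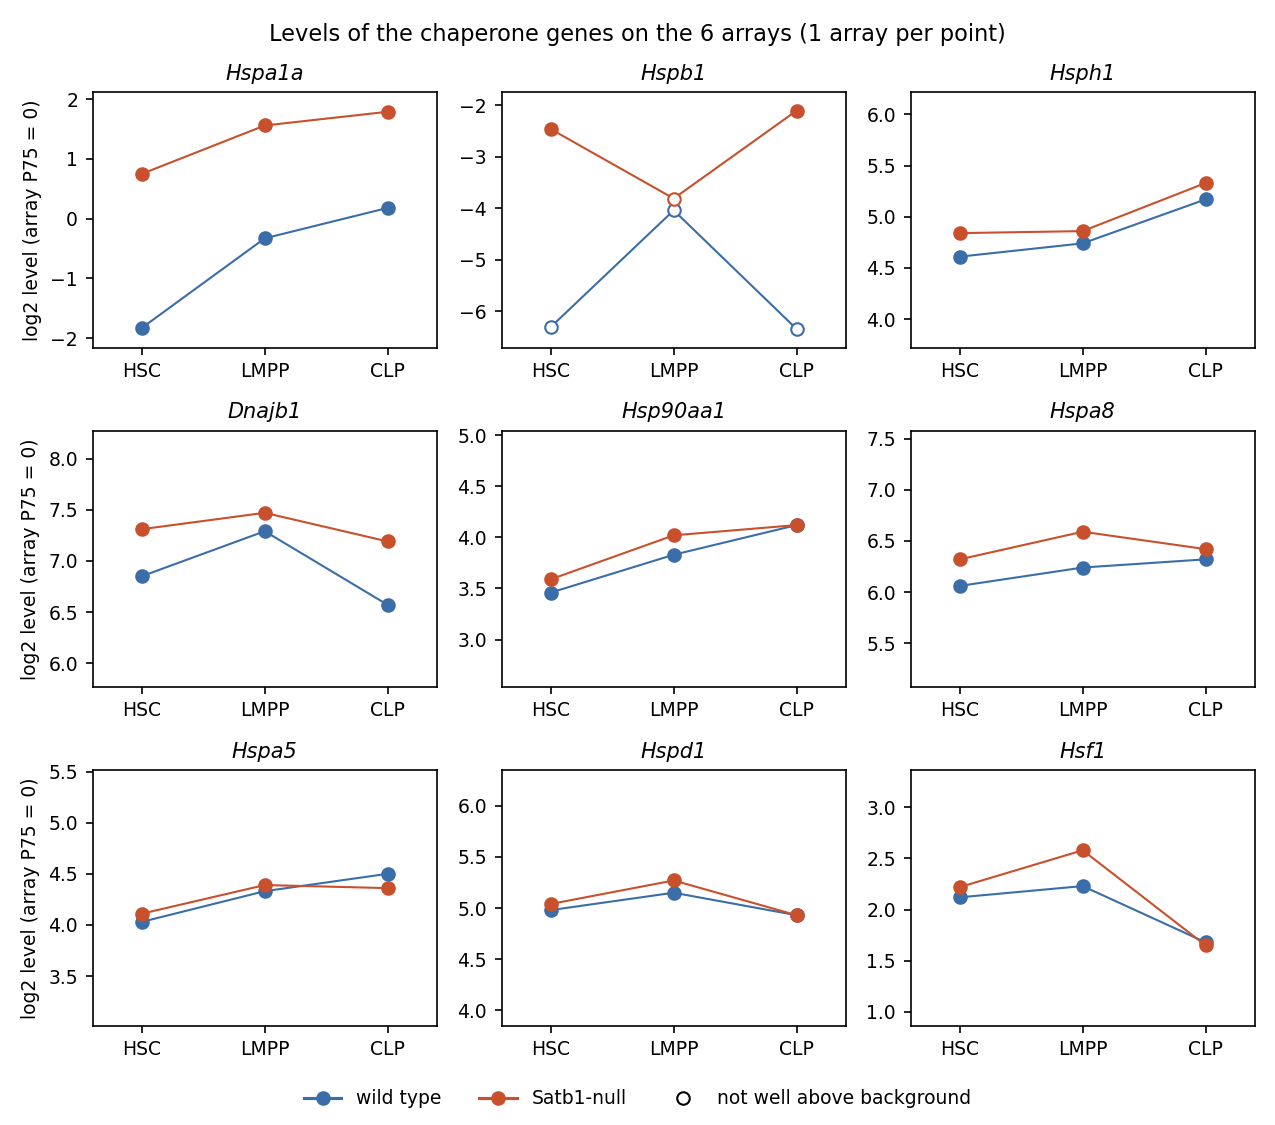
Log2 level of each member gene (vertical, array 75th percentile at 0, scales differ between panels) in HSC, LMPP and CLP (horizontal) for wild type (blue) and Satb1-null (red), with 1 array per point and open points where the spot was not well above background. The Satb1-null points of Hspa1a lie between 0.75 and 1.79 and its wild type points between -1.83 and 0.18, while the 2 lines of Hspd1 and Hspa5 nearly coincide.

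Hspb1, the inducible small heat shock protein Hsp27, was close to background throughout. Its wild type levels were -6.31, -4.04 and -6.35 and its Satb1-null levels -2.46, -3.81 and -2.10. It was well above background, here called detected, on only 2 arrays, those of Satb1-null HSC and CLP. The lowest signal well above background lay at -4.03 on the wild type HSC array and at -4.13 on the wild type CLP array, which made Hspb1 at least 2.97-fold higher in Satb1-null HSC and at least 4.08-fold higher in Satb1-null CLP. With normexp background correction the lower bounds of its log2 differences were 0.51 and 0.66. A 2-fold difference was then neither shown nor excluded. In LMPP neither array measured it. The rest of the inducible members had much smaller differences. Dnajb1, the Hsp40 cochaperone that delivers clients to Hsp70, had wild type levels of 6.85, 7.29 and 6.57 and Satb1-null levels of 7.31, 7.47 and 7.19. Its differences were 0.46 in HSC and 0.62 in CLP, both beyond the scanner error of 0.204, and 0.18 in LMPP, within it. That error was 0.204 in every population for all members other than Hspa1a and Hspb1. For them it is therefore the same cut-off throughout and tells nothing of how genes differ in spread. For Dnajb1 the wild type LMPP array was above the Satb1-null CLP array, so the genotypes overlapped across populations.

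Hsph1, the Hsp110 exchange factor of Hsp70, had wild type levels of 4.61, 4.74 and 5.17 and Satb1-null levels of 4.84, 4.86 and 5.33 by its brighter probe, with differences of 0.24, 0.12 and 0.16. Only that of HSC was beyond the scanner error. The HSC difference was 0.11 with centring on detected probes, and 0.14 with quantile normalization, the authors' values or the mean over probes. With median centring it was 0.42 and with normexp 0.32. The dimmer probe of Hsph1 gave 0.05, -0.14 and 1.11, so the 2 probes disagreed in CLP. There the dimmer probe was at 0.68 in wild type and 1.78 in Satb1-null. Hsp90aa1, the inducible cytosolic Hsp90, had wild type levels of 3.46, 3.83 and 4.12 and Satb1-null levels of 3.59, 4.02 and 4.12. Its differences of 0.13, 0.19 and 0.00 were all within the scanner error.

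The constitutive members followed Hspa1a little or not at all. Hspa8, the constitutive cytosolic Hsp70, had wild type levels of 6.06, 6.24 and 6.32 and Satb1-null levels of 6.32, 6.59 and 6.42 by its brightest probe, with differences of 0.26, 0.35 and 0.10. Its other probes gave 0.21, 0.02 and 0.32, and 0.06, 0.03 and 0.05. No population was therefore beyond 0.204 by all 3 probes. Hspa5, the ER Hsp70 also called BiP, differed by 0.08, 0.07 and -0.14, with levels of 4.03, 4.33 and 4.50 in wild type and 4.11, 4.39 and 4.36 in Satb1-null. Hspd1, the mitochondrial chaperonin Hsp60, differed by 0.07, 0.12 and 0.00, with levels of 4.98, 5.15 and 4.93 against 5.04, 5.27 and 4.93. For both genes all 3 differences lay within the scanner error. Hsf1, the heat shock transcription factor, had wild type levels of 2.12, 2.23 and 1.68 and Satb1-null levels of 2.22, 2.58 and 1.65. Its difference passed the scanner error in LMPP (0.35) and not in HSC (0.10) or CLP (-0.03). The HSC differences of Hspa5, Hspd1 and Hsf1 turned negative when arrays were centred on detected probes, as did that of Hspa5 with quantile normalization and with the authors' values, that of Hspd1 with the authors' values and that of Hsf1 with quantile normalization.

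**Figure D3:**
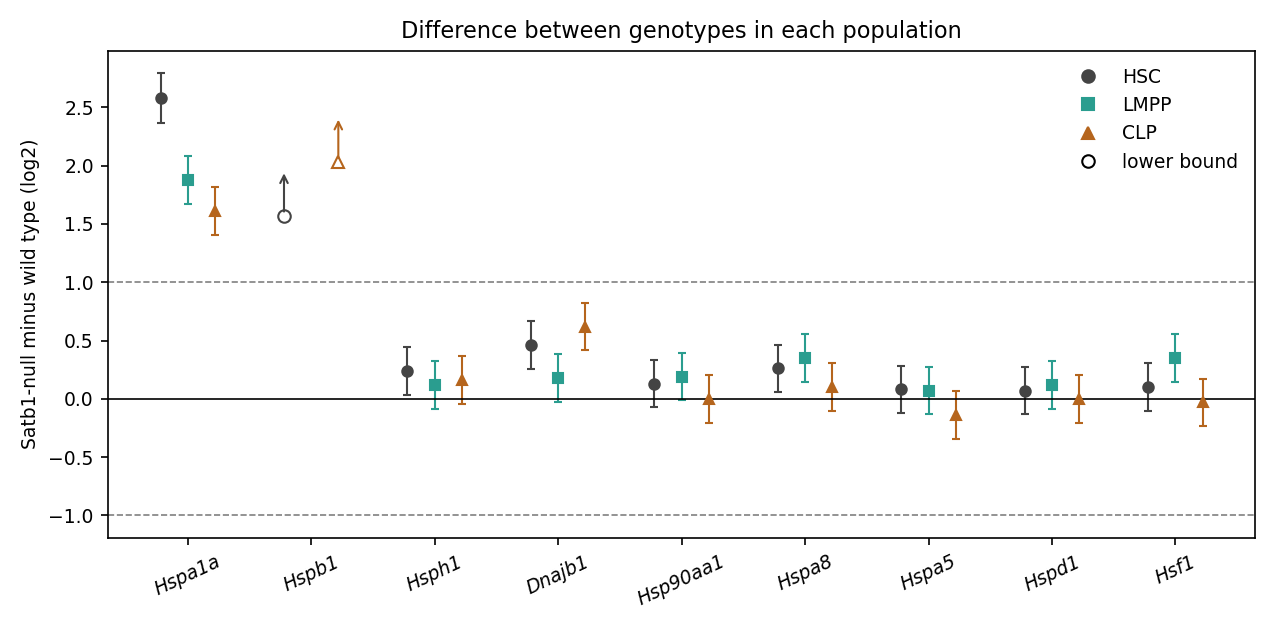
Log2 difference, Satb1-null minus wild type (vertical), of each member gene (horizontal) in HSC (circles), LMPP (squares) and CLP (triangles). Bars are the scanner error of the difference of 2 single arrays, open symbols with arrows are lower bounds and dashed lines mark a 2-fold difference. Hspa1a and the bounds of Hspb1 pass the upper line, and the other 7 genes lie between -0.14 and 0.62.

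As a set, 2 of 9 members measured in HSC were at least 2-fold higher in Satb1-null (8.42% of all genes were), 1 of 8 in LMPP (5.79% of all genes) and 2 of 9 in CLP (12.0% of all genes). These counts are Hspa1a and Hspb1, and since Hspa1a chose the set nothing is read from them. No member was at least 2-fold lower, against 5.85%, 4.12% and 8.32% of all genes. Without Hspa1a the members had median differences of 0.18, 0.18 and 0.05, beside medians of 0.13, -0.04 and 0.05 over all genes. The HSC median over all genes ran from 0.01 to 0.32 with other centrings. All 9 members in HSC and all 8 in LMPP were above 0, as were 60.1% and 45.0% of all genes, and 5 of 9 in CLP, as were 53.2%. Hspa1a was chosen for being higher, and Hspb1 was detected only on Satb1-null arrays, so both could only count as higher. Within the scanner error lay 4 of 9 differences in HSC, 5 of 8 in LMPP and 6 of 9 in CLP. Nothing is read from these counts either. Of the genes past 2-fold in HSC, 59.0% were higher, which became 73.9% with median centring, 46.9% with centring on detected probes, 49.4% with the authors' values and 47.0% without a detection filter. In LMPP 58.4% were higher, and 75.2% with normexp.

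The same question was put to 116 further genes of chaperone and protein stress pathways in 10 lists, of which 115 had a probe. In HSC 4 of 106 measured were at least 2-fold higher and 2 lower, beside 8.42% and 5.85% of all genes. In LMPP 4 of 106 were higher and 1 lower, beside 5.79% and 4.12%, and in CLP 7 of 108 were higher and 5 lower, beside 12.0% and 8.32%. Their medians were 0.22, -0.01 and 0.10, against 0.13, -0.04 and 0.05 over all genes. No gene of these lists passed 2-fold the same way in all 3 populations. With genotype and population as terms of 1 limma model on all 6 arrays, none of the 107 list genes tested differed between genotypes at an adjusted p (Benjamini-Hochberg) under 0.05, and 2 had an unadjusted p under 0.05. Over all 13012 genes the fit called 1 (0.00769%), Xist, and 726 had an unadjusted p under 0.05.

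By role, the Hsp70 and Hsp110 list, unlike the members, held genes past 2-fold in both directions. Of the Hsp70 and Hsp110 list, Hspa1l, a relative of Hspa1a expressed mainly in testis, differed by -1.81 in HSC and by no less than 2.54 in CLP. Hyou1, the ER Hsp110, differed by 1.16 in LMPP and -1.09 in CLP, and Hspa12b by 1.82 in CLP. The 3 genes of the Hsp90 list, the constitutive Hsp90ab1, the ER Hsp90b1 and the mitochondrial Trap1, did not pass 2-fold in any population. Of 18 cochaperones of Hsp70 and Hsp90, 16 were above 0 in HSC (60.1% of all genes), 11 in LMPP (45.0%) and 10 in CLP (53.2%), with medians of 0.30, 0.09 and 0.05. The 2 that passed 2-fold were Ahsa2 at -1.11 in HSC and Bag4, an Hsp70 exchange factor, at 1.95 in CLP. Bag3, an HSF1-inducible exchange factor, had differences of 0.88, 0.80 and 0.00.

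J domain proteins, which like Dnajb1 stimulate Hsp70, had medians of 0.21, -0.03 and 0.25. Past 2-fold were Dnaja4 in LMPP (no less than 2.07), Dnajb2 in CLP (2.12) and Dnajb9, an ER member, in CLP (1.38, but 0.07 by its other probe). None of the 15 chaperonin and prefoldin genes, which fold actin, tubulin and mitochondrial proteins, passed 2-fold, with medians of 0.16, -0.21 and 0.26. Of the 8 other small heat shock proteins, 4 (Hspb2, Hspb3, Hspb7 and Hspb8) were not detected on any of the 6 arrays. Hspb6 differed by 1.44 in HSC, and Cryaa, with a bound of -1.07 in CLP, was detected on 1 array only. Of 3 measured genes of the HSF list, Hsf2 passed 2-fold in CLP (-1.73).

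ER stress genes had medians of 0.28, 0.03 and 0.08 over 19 genes. Trib3, a pseudokinase of the ER stress response, differed by 3.08, -1.01 and -2.42, and Ddit3, which encodes the stress factor CHOP, by 1.70 in CLP. No gene of the mitochondrial list of 7 passed 2-fold. Among 12 oxidative and proteotoxic stress genes, Nqo1 differed by 1.33 in HSC and -1.53 in CLP, the metallothionein Mt1 by 1.18 in HSC and 1.77 in LMPP, Mt2 by 1.44 in LMPP and Srxn1, which repairs peroxiredoxins, by 3.50 in CLP.

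**Figure D4:**
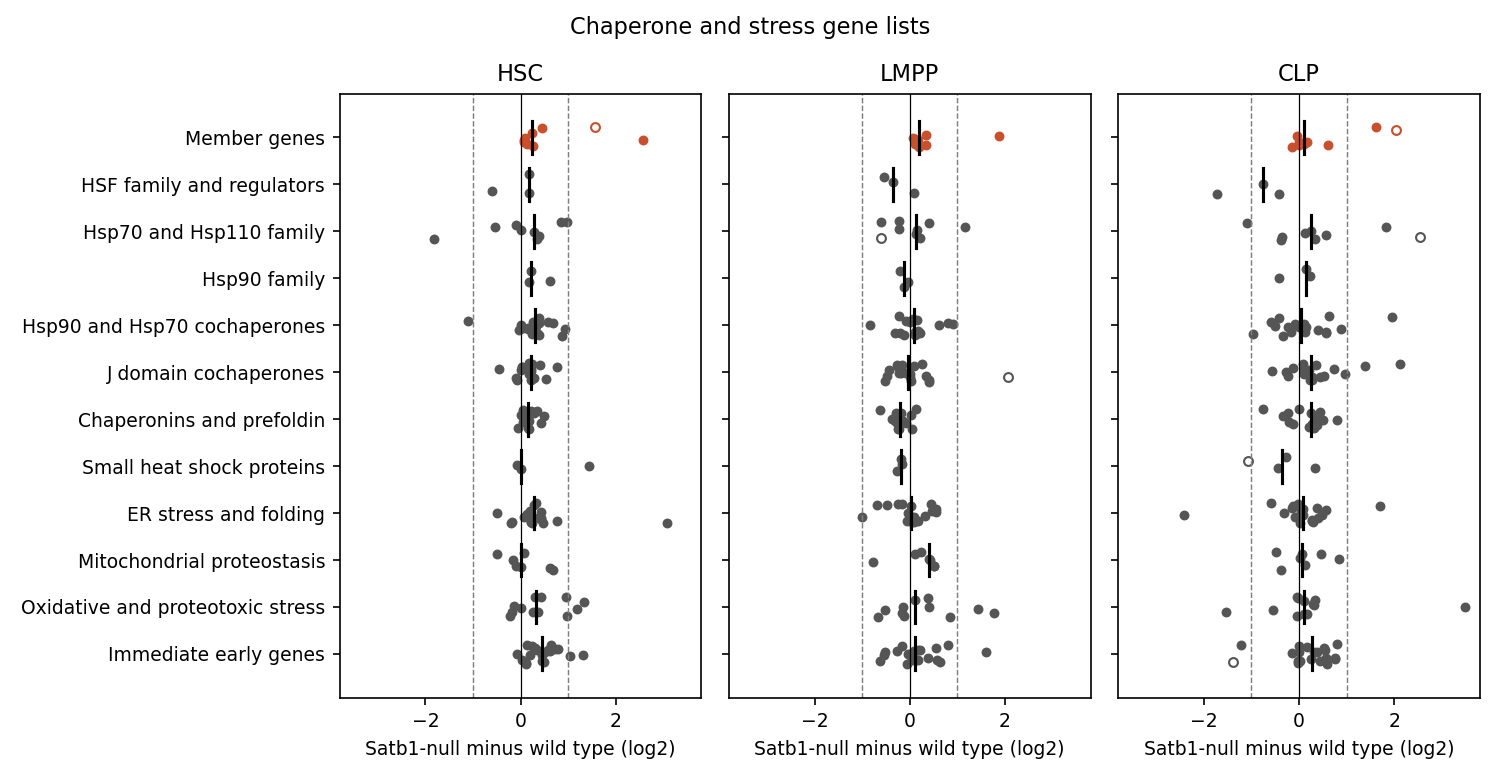
Log2 difference, Satb1-null minus wild type (horizontal), for the member genes (red) and the genes of 11 chaperone and stress lists (grey) in HSC, LMPP and CLP. Each point is a gene, open points are bounds, black ticks are list medians and dashed lines mark a 2-fold difference. List medians lie between -0.75 and 0.45, and Hspa1a is at 2.58, 1.88 and 1.61. Further right lie Trib3 in HSC (3.08) and Dnaja4 in LMPP (a bound of 2.07). In CLP so do Srxn1 (3.50), Hspa1l (a bound of 2.54), Dnajb2 (2.12), Hspb1 (a bound of 2.03), Bag4 (1.95), Hspa12b (1.82) and Ddit3 (1.70).

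Handling and sorting of cells can induce heat shock and immediate early genes together, so the immediate early list was set beside Hspa1a. Of its 20 genes, 19 were above 0 in HSC with a median of 0.45, 13 in LMPP with a median of 0.11 and 14 in CLP with a median of 0.28. Over all genes 60.1%, 45.0% and 53.2% were above 0, with medians of 0.13, -0.04 and 0.05. Atf3, a stress-induced transcription factor, differed by 1.31, 0.81 and 0.44, and the early factor Nr4a1 by 0.58, 0.56 and 0.53. At least 2-fold higher were Atf3 and Btg2 (1.05) in HSC and Gadd45b (1.60) in LMPP, and at least 2-fold lower were Egr3 (a bound of -1.38) and Ier5 (-1.21, with its other probe not detected on either array) in CLP. These were 2 of 20 higher in HSC (8.42% of all genes were), 1 of 20 higher in LMPP (5.79%) and 2 of 20 lower in CLP (8.32%). Fos, another defining early gene, differed by -0.07, -0.62 and 0.00. The fit called none of the 20 between genotypes, and 3 had an unadjusted p under 0.05, as had 726 of all 13012 genes. Their part in the Hspa1a result was not tested.

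Between populations, which the choice of members did not use, no member passed the test. Hspa1a was lowest in HSC and highest in CLP in both genotypes. LMPP minus HSC was 1.5 in wild type and 0.80 in Satb1-null, and CLP minus LMPP was 0.51 and 0.23. In the fit over 6 arrays, CLP minus HSC was 1.52 ± 0.33 (SE, 2 arrays per population) with an adjusted p of 0.0621 by limma. LMPP minus HSC was 1.15 ± 0.33 and CLP minus LMPP 0.37 ± 0.33, both with an adjusted p of 0.533 by limma. The CLP minus HSC call was gained under 4 of 14 alternatives, at adjusted p between 0.0158 and 0.32 over all of them. With 1 array per group there is no spread between replicates. The SE rests on how far population differences departed between the genotypes, and on the spread over all genes. For Hspa1a, CLP minus HSC was 2.01 in wild type and 1.04 in Satb1-null. The arrays may also share embryos, so these p-values do not measure variation between embryos.

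Hsf1 had the next lowest adjusted p. Its level fell from LMPP to CLP in the fit by 0.75 ± 0.26 without passing the test (adjusted p = 0.15 by limma), with differences of -0.55 in wild type and -0.94 in Satb1-null. Hsp90aa1 was highest in CLP in both genotypes, and CLP minus HSC was 0.59 ± 0.25 (adjusted p = 0.207 by limma). Hsph1 had CLP minus HSC at 0.52 ± 0.25 (adjusted p = 0.248 by limma). Dnajb1 was lowest in CLP and highest in LMPP in both genotypes, with CLP minus LMPP at -0.50 ± 0.27 (adjusted p = 0.297 by limma). Hspa8, Hspa5 and Hspd1 had fitted differences between -0.29 and 0.37, each with an SE of 0.25. Of all genes tested, 8.71% were called for CLP minus LMPP, 8.69% for CLP minus HSC and 0.00% for LMPP minus HSC, where 1117 genes had an unadjusted p under 0.05. Hspb1 was well above background on too few arrays to be tested.

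In the wider lists, 4 of 107 tested genes rose from LMPP to CLP and 1 fell, beside 4.76% and 3.95% of all genes. From HSC to CLP, 2 rose and 1 fell, beside 5.10% and 3.59% of all genes. Those of the ER list were Xbp1, the transcription factor of the ER stress response, and Edem1, which sends misfolded glycoproteins to degradation. From LMPP to CLP Xbp1 rose by 1.59 ± 0.26 (SE, adjusted p = 0.032 by limma) and Edem1 by 2.16 ± 0.31 (adjusted p = 0.025 by limma). Hspa5, the ER chaperone, had 0.08 ± 0.25 there. Of the cytosolic genes, Bag2, an Hsp70 cochaperone, fell from LMPP to CLP (-1.77 ± 0.28, adjusted p = 0.03 by limma) and Hspa12b from HSC to CLP (-3.27 ± 0.54, adjusted p = 0.036 by limma). None of the 107 was called between LMPP and HSC, where 6 had an unadjusted p under 0.05 by limma.

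By Pearson correlation of log2 levels over the 6 arrays, the genes most like Hspa1a among 2589 with a comparable spread were Tstd3 (0.96), Adprm (0.96), Fancf (0.94), Paqr7 (0.93) and Zfp809 (0.93). Tstd3 had wild type levels of -1.11, -0.19 and -0.19 and Satb1-null levels of -0.06, 0.73 and 1.1. Among the members Hspa8 had 0.92, but its SD over the arrays was 0.18 against 1.34 for Hspa1a. The arrays of a genotype share a slide row, and the arrays of a population share a sort gate, so these values describe 6 arrays only.

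Several features of the arrays moved with genotype. All arrays lay on 1 slide, with wild type in row 1, Satb1-null in row 2 and each population in a column of its own, so row and genotype cannot be told apart. Xist was well above background on the 3 Satb1-null arrays and on no wild type array, and the Y-linked Ddx3y was lower on the Satb1-null arrays by 1.83, 2.88 and 0.97, so sex-linked signal and genotype cannot be told apart either. Satb1 itself differed by -0.56, -0.04 and -0.06 by 1 probe. Whether that probe lies in the deleted part is not stated, so its value does not check the labels. In both genotypes LMPP had the highest Flt3 and CLP the highest Il7r, 2 of the genes the cells were sorted on. The other sort genes differed between genotypes by 0.22, -0.18 and 0.95 (Kit) and by 0.06, -0.98 and -0.71 (Ly6a, which encodes Sca-1). In addition, all 6 HSC markers fell from HSC to CLP in the fit, beside 3.59% of all genes. Between genotypes, 0 of 6 were at least 2-fold higher in HSC, 0 of 6 in LMPP and 1 of 5 measured in CLP (12.0% of all genes). That 1 was Hlf, higher by 2.45 in Satb1-null CLP.

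Markers of other blood cells also moved. As the sum of linear levels over the list, with the array's 75th percentile at 1, the 7 erythroid markers had sums of 16.3, 18 and 706 in wild type against 42.7, 93.3 and 758 in Satb1-null. Of them, 3 of 6 measured were at least 2-fold higher in HSC (8.42% of all genes were), 4 of 6 in LMPP (5.79%) and 0 of 7 in CLP (12.0%). The 8 B lineage markers had sums of 1.15, 1.81 and 8.16 against 3.82, 2.77 and 9.70. Here 3 of 5 measured were at least 2-fold higher in HSC, 4 of 6 in LMPP and 2 of 8 in CLP, beside the same shares of all genes. Megakaryocyte markers had sums of 4.80, 6.41 and 49.6 in wild type against 8.61, 19.2 and 31.4, and mast cell, basophil and eosinophil markers 11.0, 4.03 and 190 against 14.1, 11.8 and 135. Granulocyte and monocyte markers had 326, 275 and 1230 against 427, 354 and 1050, and macrophage markers 25.1, 24.1 and 29.0 against 24.0, 22 and 34.1. Most of the macrophage sum was Csf1r, at log2 levels of 4.61, 4.55 and 4.39 in wild type and 4.54, 4.33 and 4.43 in Satb1-null. Of 6 macrophage markers tested, 4 rose from HSC to CLP in the fit, beside 5.10% of all genes. In LMPP, 4 of 5 measured megakaryocyte and 4 of 4 mast cell, basophil and eosinophil markers were at least 2-fold higher in Satb1-null. So were 3 of 8 granulocyte and monocyte and 3 of 6 macrophage markers, beside 5.79% of all genes. In the same order, these lists had 1 of 5, 1 of 5, 0 of 8 and 1 of 5 higher in HSC, beside 8.42%. In CLP they had 0 of 6, 2 of 5, 0 of 8 and 2 of 6, beside 12.0%. At least 2-fold lower were 1 macrophage marker in HSC and 1 megakaryocyte marker in CLP. The sums ranged from 3.62 to 5.08 in wild type and 2.41 to 4.26 in Satb1-null for T lineage markers, from 0.282 to 0.575 and 0.368 to 0.578 for hepatocyte markers and from 1.63 to 5.63 and 1.91 to 3.27 for endothelial and stromal markers. At least 2-fold lower were 2 of 3, 0 of 3 and 1 of 3 measured T lineage markers (1 was higher in CLP). So were 2 of 4, 1 of 3 and 2 of 4 endothelial and stromal markers (1 higher in CLP). Of hepatocyte markers 0 of 4, 2 of 3 and 1 of 2 were lower, and 1, 0 and 1 higher. Of all genes 5.85%, 4.12% and 8.32% were lower. The endothelial marker Stab2 differed by -1.44 and -1.44 (both bounds) and -2.08. Cd3g, Cd3d, Bcl11b, C1qa, Vsig4, Ttr, Fgb, Col1a1 and Col3a1 were detected on none of the arrays. Within a sorted population, a change in the share of cells and a change in RNA per cell cannot be told apart, and the part of these cells in the chaperone values was not tested.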

How the data were processed

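The deposited scanner files hold spot intensities on a linear scale, made with Agilent Feature Extraction 10.10.1.1 per the file headers (10.10 per the submitters' processing notes). RNA was amplified and labelled with Cy3, per the labels' protocols. Between 52.4% and 57.7% of non-control spots per array were well above background and none was saturated. The number of arrays limits the precision. The authors' deposited table of processed intensities equals the scanner's processed signal times a constant per array (5.71 to 8.77), whose basis stays unknown. Its column medians were 200.1, 140.2, 120.7, 165.3, 145.6 and 124.9 in the order wild type HSC, LMPP, CLP, then Satb1-null. It served as an alternative.

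From these files, control spots and outlier spots were left out, log2 processed signals were centred on each array's 75th percentile, and each gene was read from its brightest probe (27235 of 55681 probes were named through accessions in the RefSeq table of GRCm38.p6). A difference needed the brighter array to be well above background. Against a dimmer array that was not, it is a bound from that array's lowest signal well above background, or the probe's own if higher. "2-fold" is 1 on the log2 scale. limma 3.58.1 (lmFit, eBayes, in R 4.3.3) fitted genotype and population over 6 arrays for 13012 genes, those detected (well above background) on 3 or more arrays, with dim values raised to that floor, and was tested on simulated data. Alternatives were other centrings, quantile normalization, normexp on median spot signals with offset 50 (the files hold no mean signal), the authors' values, the mean over probes, other detection filters, thresholds of 1.5-fold and 3-fold, and leaving out each array.

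Named genes were all members, the sort markers and Satb1, in each chaperone and stress list up to 3 genes per population past 2-fold (marker lists of other cells are given as sums and counts), genes called between populations, and the 5 genes most correlated with Hspa1a. Bag3, Fos, Nr4a1, Elane, Ms4a3, Ctsg, Mpo, Prtn3, S100a8, S100a9, Lyz2, Csf1r, Hsp90ab1, Hsp90b1, Trap1, Xist, Ddx3y, Stab2 and Hlf were added after their values were seen. Members and lists were chosen with earlier results of these data known.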

Additional observations from a re-analysis of the deposited data

Results flagged for a closer look

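For 4 stress genes of the wider lists, the difference between genotypes (Satb1-null minus wild type, log2) passed 2-fold in opposite directions in different populations. Hspa1l had -1.81 in HSC and no less than 2.54 in CLP. Hyou1 had 1.16 in LMPP and -1.09 in CLP. Trib3 had 3.08 in HSC, -1.01 in LMPP and -2.42 in CLP. Nqo1 had 1.33 in HSC and -1.53 in CLP. Each rests on 1 probe and 1 array per group, and the difference between populations was not tested.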

How the results depend on the processing

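The Hspa1a difference between genotypes stayed above 2-fold in all 3 populations under every alternative run (1.78 to 2.79 in HSC, 1.65 to 1.93 in LMPP, 1.47 to 1.61 in CLP). With normexp the lower bounds of Hspb1 were under 2-fold (0.51 in HSC, 0.66 in CLP), so it no longer counted as at least 2-fold higher. There 1 member counted in HSC and 1 in CLP. At a 3-fold threshold 1 member was higher in HSC. At a 1.5-fold threshold 3 members were higher in CLP, with Dnajb1 (0.62) the third. For CLP minus HSC, 1 member (Hspa1a) was called with median centring, with normexp and among genes well above background on all 6 arrays, and between 0 and 1 when each array was left out, the 1 being without the Satb1-null CLP array (1.83, adjusted p = 0.05 after rounding, by limma). The cause was not tested, beyond the smaller number of genes tested in the filtered set. The other counts of members past a fold threshold or called between populations, and the count of 0 list genes called between genotypes, were the same under all alternatives run. Most members are bright, Hspb1 is near the background and Hspa1a was dimmest in wild type HSC. With 1 array per group, genotypes were paired by population only, through the population term of the fit.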

Other observations

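The metallothioneins Mt1 and Mt2, small metal-binding proteins that respond to metals and oxidants, differed between populations. In the order HSC, LMPP, CLP, the log2 levels of Mt1 were 2.63, 0.46 and 5.22 on wild type arrays and 3.8, 2.23 and 5.32 on Satb1-null arrays. Those of Mt2 were 4.93, 2.82 and 7.54 on wild type arrays and 5.90, 4.25 and 7.49 on Satb1-null arrays. Both were lowest in LMPP and highest in CLP in both genotypes. Of the granulocyte and monocyte markers, Elane, Ms4a3, Ctsg, Mpo and Prtn3 had the same order. S100a9 and Lyz2 were instead lowest in HSC in both genotypes, and S100a8 in Satb1-null only. Elane, which encodes neutrophil elastase, was at 3.24, 0.96 and 5.74 on wild type arrays and 4.04, 2.39 and 5.63 on Satb1-null arrays. From LMPP to CLP Mt1 rose by 3.93 ± 0.46 (SE, adjusted p = 0.018 by limma) and Mt2 by 3.98 ± 0.42 (adjusted p = 0.016 by limma). Over the same step Elane rose by 4.01 ± 0.43 (adjusted p = 0.016 by limma), Ms4a3 by 4.07 ± 0.55 (adjusted p = 0.022 by limma) and Ctsg by 2.52 ± 0.30 (adjusted p = 0.018 by limma). The summed level of erythroid markers went from 18 to 706 in wild type and from 93.3 to 758 in Satb1-null. The part of these cells in the metallothionein values was not tested.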
